A study of Danio rerio with 12 samples.

Results

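Fast skeletal muscle is marked by 10 genes that were followed here across whole zebrafish hearts, the parvalbumins pvalb1, pvalb2 and pvalb4, the troponin T genes tnnt3a and tnnt3b, the myosin light chain genes mylpfa and mylpfb, the myosin heavy chain gene myhz2, the muscle creatine kinase gene ckma and the alpha-actinin gene actn3b. They were chosen by symbol, as genes reported to stand higher after cryoinjury in these same libraries, and all 10 were found once each among the 24782 genes of the deposited table. Fast skeletal muscle contracts when calcium binds the troponin complex on the thin filament and lets myosin pull on actin. Parvalbumins take up the calcium afterwards so that the fibre relaxes quickly, creatine kinase regenerates ATP, and alpha-actinin anchors thin filaments at the Z-disc. Heart muscle builds the same machine from its own set of genes, such as tnnt2a, myl7 and vmhc, and shares some genes with skeletal muscle.

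The 12 libraries came from fish of 6 to 12 months with the genotype yap +/+, called wild type, or yap -/-, called mutant, with 3 libraries for each genotype and operation. Yap, the product of yap1, is a transcriptional co-activator restrained by the Hippo kinases. In the cryoinjured groups a steel probe chilled in liquid nitrogen was held to the ventricle, and in the sham groups the chest was opened and the ventricle was left alone. Hearts were collected whole after 7 days. The labels do not give the wild-type strain or the kind of yap allele, and do not say whether replicates were separate fish or pools, so the spread between libraries may be technical in part. In whole hearts, fewer cells of a type and less RNA per cell cannot be told apart.

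Expression is given in FPKM, the fragments of a gene per kilobase of its transcript, relative to all mapped fragments. Read totals were not used here, and relative depth, read from the steps in low FPKM values, was 0.812 to 1.2 times that of wild-type sham 1 for 11 of the libraries and could not be fixed for mutant sham 3. The libraries mutant sham 1 and mutant cryoinjury 2 stood apart in their share of FPKM from ribosomal protein genes, 39.8% and 32.7%, where the rest had 13.6% to 20.9%, and values without both are given beside the members' median in mutants, the tests between genotypes and the actin genes. The labelled tissue was borne out by its own markers, with the atrial and ventricular light chain gene myl7 at 14277 to 34202 FPKM and the cardiac troponin gene tnnt2a at 5367 to 11043 FPKM. The mutated gene, yap1, lay at 18.8 to 29.8 FPKM in the wild-type and at 10.1 to 14.4 FPKM in the mutant libraries, with no overlap.

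Of the parvalbumins, pvalb1 and pvalb2 separated all sham from all cryoinjured hearts. pvalb1 stood at 1.38, 0.27 and 0.54 FPKM in wild-type sham 1, 2 and 3, and at 9.25, 4.74 and 2.64 FPKM in wild-type cryoinjury 1, 2 and 3. In mutants it stood at 0.81, 1.02 and 1.43 FPKM after sham surgery and at 12.9, 5.23 and 19.0 FPKM after cryoinjury. All 6 cryoinjured libraries were above all 6 sham libraries, and the highest values were those of mutant cryoinjury 3, mutant cryoinjury 1 and wild-type cryoinjury 1. On the log2(FPKM + 1) scale, which understates the change of low genes, the difference was 1.84 ± 0.45 (SE) in wild type and 2.53 ± 0.45 in mutants. The ratio of group means was 7.59 in wild type and 11.4 in mutants.

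pvalb2 stood at 0.56, 0.40 and 0.27 FPKM in wild-type sham hearts and at 11.2, 4.54 and 3.36 FPKM in wild-type cryoinjury 1, 2 and 3. Mutant sham hearts stood at 0.35, 2.97 and 2.5 FPKM and mutant cryoinjured hearts at 25.7, 7.80 and 21.3 FPKM. Here too the cryoinjured and sham libraries did not overlap, and mutant sham 2 and 3 lay above all wild-type sham libraries. Its difference (log2) was 2.24 in wild type and 2.71 in mutants, each ± 0.51 (SE), or 15.6 and 9.42 times in group means.

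The third parvalbumin gene, pvalb4, did not follow this pattern. It stood at 2.52, 0.45 and 2.45 FPKM in wild-type sham hearts, and at 9.75, 1.49 and 1.2 FPKM in wild-type cryoinjured hearts. Mutant sham hearts stood at 1.32, 0.83 and 12.4 FPKM, and mutant cryoinjured hearts at 12.4, 1.74 and 9.24 FPKM. The groups overlapped in both genotypes, since mutant sham 3 was as high as mutant cryoinjury 1 while wild-type cryoinjury 2 and 3 were within the sham range. The log2 differences were 0.58 in wild type and 0.91 in mutants, each with an SE of 0.85. The first was -0.15 without wild-type cryoinjury 1. The second was -0.52 with limma array weights, which weigh each library by its fit, and leaving out mutant sham 1, 2 or 3 made it 0.54, 0.37 or 1.81.

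The troponin T genes encode the subunit that ties the troponin complex to tropomyosin. tnnt3b stood at 0.40, 0.23 and 1.07 FPKM in wild-type sham hearts and at 4.09, 0.68 and 1.83 FPKM in wild-type cryoinjured hearts. It stood at 0.13, 0.34 and 0.61 FPKM in mutant sham hearts and at 17.9, 3.09 and 6.78 FPKM in mutant cryoinjured hearts. In wild type the groups overlapped, because wild-type cryoinjury 2 lay below wild-type sham 3, and in mutants they did not. On the log2 scale tnnt3b differed by 0.92 in wild type and by 2.65 in mutants, each ± 0.51 (SE), or 3.88 and 25.8 times in group means. Without wild-type cryoinjury 1 the wild-type difference was 0.51. Its paralog tnnt3a was close to the limit of measurement. It was listed at 0 in 8 of the 12 libraries and elsewhere reached 0.09 to 0.77 FPKM, with the highest value in wild-type cryoinjury 1. Its mean difference was 0.24 in wild type and 0.11 in mutants (log2), the first being -0.02 without that library.

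The regulatory myosin light chain of fast fibres is encoded by mylpfa and mylpfb. mylpfa stood at 1.47, 0.88 and 2.85 FPKM in wild-type sham hearts and at 9.37, 5.43 and 2.73 FPKM in wild-type cryoinjured hearts. It stood at 0.50, 2.95 and 1.28 FPKM in mutant sham hearts and at 10.6, 3.44 and 18.4 FPKM in mutant cryoinjured hearts. Wild-type cryoinjury 3 lay within the sham range, whereas the mutant groups did not overlap. On the log2 scale the difference was 1.27 in wild type and 2.07 in mutants, each ± 0.55 (SE). mylpfb was above 0 in 4 libraries, at 0.13 FPKM in wild-type sham 1 and mutant cryoinjury 3, 0.26 FPKM in wild-type cryoinjury 2 and 0.43 FPKM in mutant sham 2. Scaled by depth these values were 1.00, 1.01, 2.11 and 3.14 times the lowest, as 1 to 3 fragments would give, so at this depth no difference between groups was detectable for mylpfb.

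myhz2 encodes a fast myosin heavy chain, the motor protein of the thick filament. It was at 0.02, 0.05 and 0 FPKM in wild-type sham hearts, 0.74, 0.11 and 0 FPKM in wild-type cryoinjured hearts, 0.03, 0 and 0 FPKM in mutant sham hearts and 1.3, 0 and 1.65 FPKM in mutant cryoinjured hearts. Only wild-type cryoinjury 1 and mutant cryoinjury 1 and 3 exceeded 0.11 FPKM. The other fast heavy chain genes were also low. Summed over 7 such genes (myhz2, myhz1.1, myhz1.2, myhz1.3 under its clone name, myha, myhb and myhc4), whose near-identical copies could share reads, the level was 0.07 to 1.75 FPKM in sham hearts and 0.27 to 7.31 FPKM in cryoinjured hearts. The highest sums were 7.31 FPKM in mutant cryoinjury 3, where myhz2 gave 1.65 FPKM, and 3.43 FPKM in mutant cryoinjury 1, where it gave 1.3 FPKM. The 1.75 FPKM of wild-type sham 3 was carried by myhb.

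actn3b and ckma went against the name given to the set. actn3b, the fast-fibre alpha-actinin gene, lay between 0.06 and 0.74 FPKM in all libraries, with sham and cryoinjured groups overlapping and differences of -0.13 in wild type and -0.08 in mutants (log2). Leaving out mutant sham 2, mutant sham 3 or mutant cryoinjury 2 turned the mutant value to 0.03, 0.04 or 0.01. ckma was abundant in every heart and ranked 154th of 24782 genes by mean FPKM, whereas the other 9 members ranked 6224th or lower. It stood at 1912, 1061 and 1124 FPKM in wild-type sham hearts and at 1194, 1324 and 844 FPKM in wild-type cryoinjured hearts. Mutant sham hearts stood at 149, 634 and 444 FPKM and mutant cryoinjured hearts at 482, 622 and 1041 FPKM. The cryoinjured and sham groups overlapped in both genotypes, with log2 differences of -0.26 in wild type and 0.96 in mutants, each ± 0.49 (SE). The first was 0.01 without wild-type sham 1, and the second 0.35 without mutant sham 1.

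**Figure D1:**
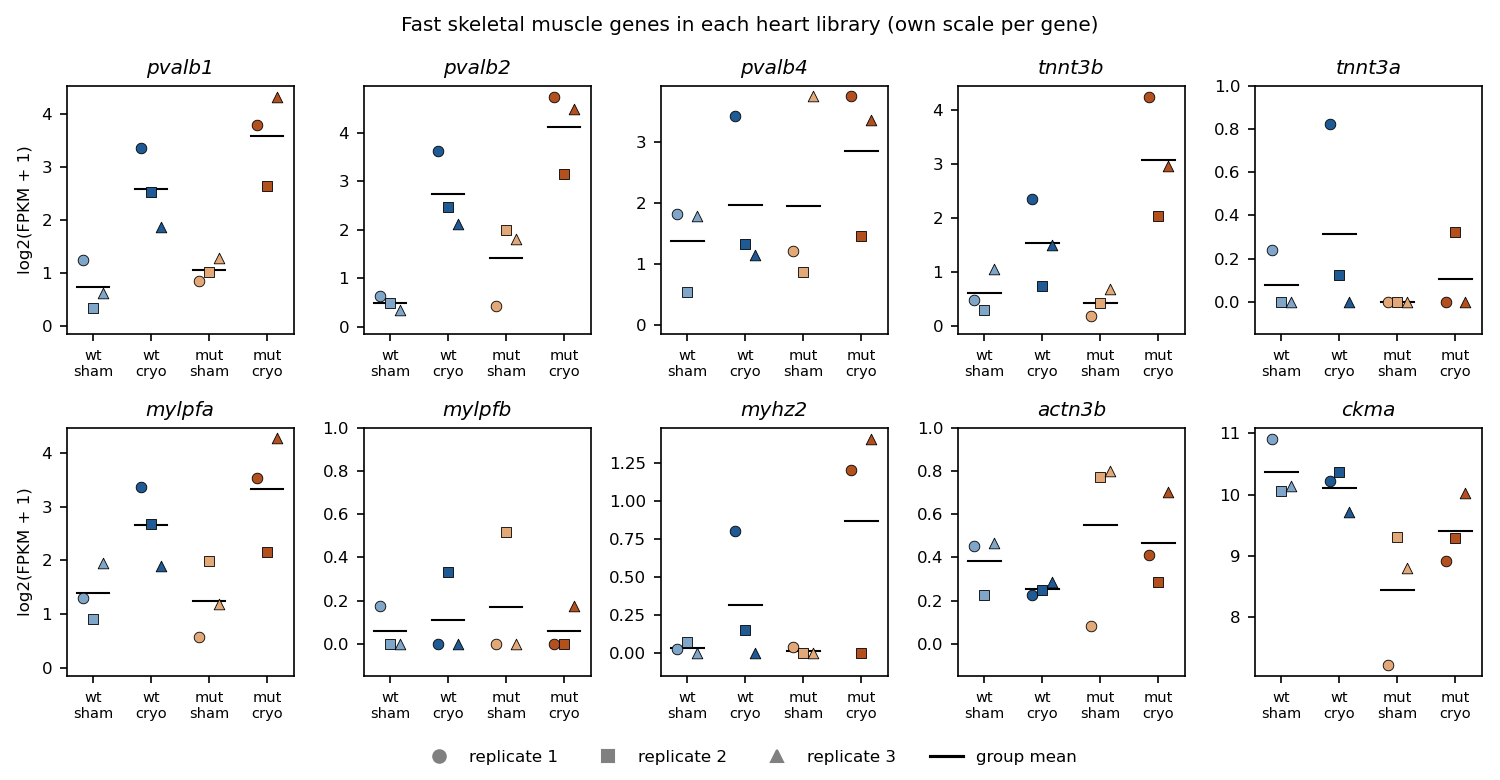
Each panel shows 1 gene, with log2(FPKM + 1) on its own vertical axis and the 4 groups on the horizontal axis, where wt is wild type, mut is mutant and cryo is cryoinjury. Each point is 1 library, its shape gives the replicate number, and bars are group means of 3. pvalb1 and pvalb2 separate all 6 cryoinjured from all 6 sham libraries, the 4 scarce genes lie near 0, and ckma is lowest in mutant sham 1.

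In all, 8 of the 10 genes had a positive mean difference after cryoinjury in wild type and 8 in mutants, where 74.3% and 52.5% of all tested genes did, with medians over all 10 of 0.43 and 0.94 (log2). The median of all 13969 tested genes, whose mean reached 1 FPKM, was 0.19 in wild type and 0.01 in mutants, and -0.01 and -0.02 after rescaling the libraries by the median of ratios. Cryoinjured libraries lay above sham libraries without overlap for 2 of the 10 genes in wild type (24.3% of all tested genes) and for 4 in mutants (2.05%), and over both genotypes for 2 (0.43%). Averaged over genotypes, pvalb1 and pvalb2 were among the 9 genes called by limma (0.0644% of tested genes), calls that were lost when any 1 library other than mutant sham 2 or mutant cryoinjury 2 was left out. Since the set was chosen for standing higher after cryoinjury, these counts describe it and support nothing. Leaving out wild-type cryoinjury 1 gave a wild-type median of 0.08, and leaving out wild-type sham 2 gave 0.25. The mutant median was 1.88 with a pseudocount of 0.1 FPKM, 1.47 without mutant sham 3, 1.45 without mutant cryoinjury 2 and 1.27 without both libraries rich in ribosomal protein mRNA. Both medians moved in either direction. With each library left out in turn, the wild-type median ran from 0.08 to 0.69 and the mutant median from 0.66 to 1.47.

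**Figure D2:**
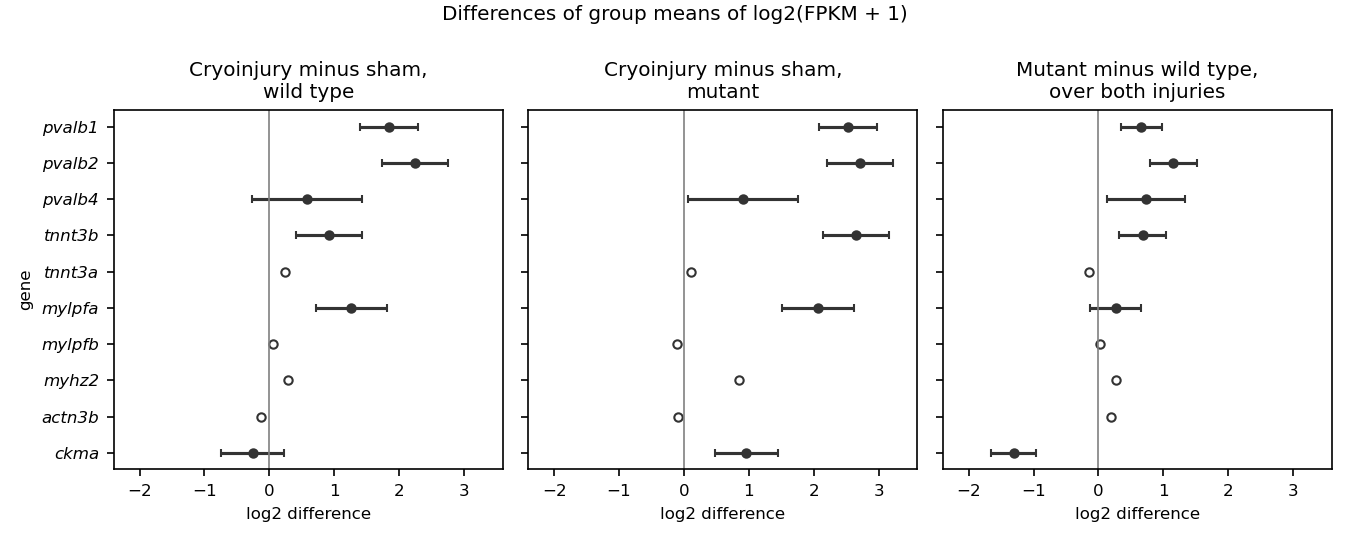
The horizontal axes give differences of group means of log2(FPKM + 1) for cryoinjury minus sham in each genotype and for mutant minus wild type over both injuries. Filled points carry the limma SE, and open points are the 4 genes under 1 FPKM, drawn without error. pvalb1, pvalb2, tnnt3b and mylpfa lie furthest to the right in mutants, and ckma lies at -1.31 in the genotype panel.

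The response in mutants minus that in wild type was 1.73 ± 0.72 (log2, SE) for tnnt3b, 1.22 ± 0.69 for ckma, 0.80 ± 0.78 for mylpfa, 0.69 ± 0.63 for pvalb1, 0.46 ± 0.72 for pvalb2 and 0.33 ± 1.2 for pvalb4. The limma adjusted p over all tested genes was 1.00 for each of the 6, and 0% of tested genes were called, while 1.94% had an unadjusted p under 0.05, as tnnt3b did (0.0348). No member's difference was therefore shown to differ between genotypes. The sign was positive under all 19 alternatives for tnnt3b (lowest 1.15), ckma (0.61), mylpfa (0.32) and pvalb1 (0.32). It was below 0 under 2 for pvalb2 (lowest -0.10, with a pseudocount of 0.1 FPKM) and 5 for pvalb4 (lowest -1.13, with array weights). The filter settings and the replicate block cannot change these sizes, so their signs were fixed in advance. Without both libraries rich in ribosomal protein mRNA the values were 2.13 for tnnt3b, 0.67 for ckma, 1.06 for mylpfa, 1.07 for pvalb1, 0.47 for pvalb2 and 0.66 for pvalb4. The set was proposed with the mutant response in view, so this contrast is not independent of the choice.

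Several genes had the same 3 highest libraries, though not always in the same order. Mutant cryoinjury 1, mutant cryoinjury 3 and wild-type cryoinjury 1 were the 3 highest libraries for 5 of the 10 genes (pvalb1, pvalb2, tnnt3b, mylpfa and myhz2), against 83 of 13969 tested genes (0.594%). This set of 3 was noticed in the values of these genes and then counted. All 3 libraries are cryoinjured, and the members were chosen for standing higher after cryoinjury. The tested genes were not chosen in that way, so they are not a like base. Of the 5, myhz2 lay under the filter and so outside the tested genes that give the 0.594%. Summed over the 9 members other than ckma, the level was 81.1 FPKM in mutant cryoinjury 1, 77.1 FPKM in mutant cryoinjury 3 and 45.4 FPKM in wild-type cryoinjury 1. The other cryoinjured libraries held 12.0 FPKM (wild-type cryoinjury 3), 17.5 FPKM (wild-type cryoinjury 2) and 21.8 FPKM (mutant cryoinjury 2), and sham libraries 2.45 to 19.0 FPKM. The top of the sham range was mutant sham 3, where pvalb4 alone gave 12.4 FPKM. Among the cryoinjured mutants, mutant cryoinjury 2 was lowest for pvalb1, pvalb2, pvalb4, tnnt3b, mylpfa and myhz2, and it is also the library in which ribosomal protein mRNAs took 32.7%. The part of that share in these levels was not tested.

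Levels of 4 members were also set against pvalb2 within each heart. The level of pvalb1 was 0.50 to 1.04 times that of pvalb2 over the 6 cryoinjured libraries, mylpfa 0.41 to 1.2 times and tnnt3b 0.15 to 0.70 times. In the 6 sham libraries, where the levels are low, the same ratios ran from 0.34 to 2.46, from 0.51 to 10.6 and from 0.11 to 3.96. pvalb4 was at 0.22 to 0.87 times pvalb2 in cryoinjured and at 0.28 to 9.07 times in sham libraries.

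Beside their cardiac counterparts the fast skeletal genes were scarce in all libraries. tnnt3b reached at most 0.165% of the FPKM of tnnt2a, in mutant cryoinjury 1. mylpfa reached at most 0.0703% of myl7, in mutant cryoinjury 3. myhz2 reached at most 0.445% of the ventricular heavy chain gene vmhc, which lay at 138 to 526 FPKM, and at most 0.0436% of its more abundant relative vmhcl, at 2486 to 5881 FPKM.

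**Figure D3:**
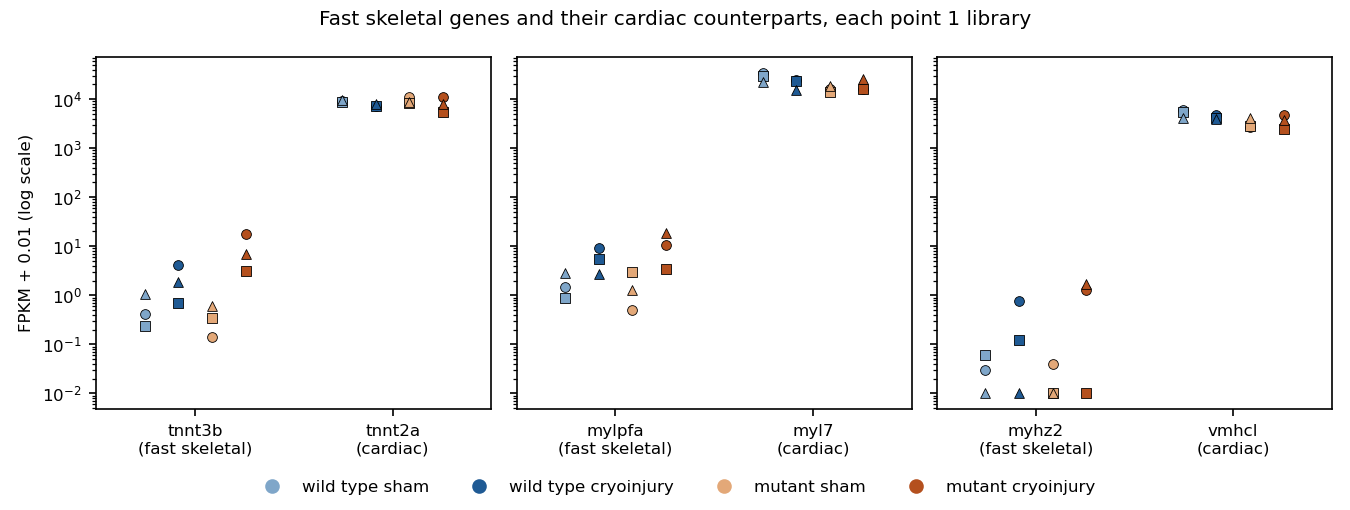
Each panel sets 1 fast skeletal gene beside a cardiac counterpart, as FPKM with 0.01 added on a log axis. Points are single libraries coloured by group, with shapes for replicates 1 to 3 as circle, square and triangle. tnnt3b, mylpfa and myhz2 stay below 18.5 FPKM in every library, while tnnt2a, myl7 and vmhcl lie between 2486 and 34202 FPKM.

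Mutant and wild-type hearts were then compared over both injuries, a contrast balanced against the injury difference that chose the genes. The set was also proposed with the mutant response in view, so the balance does not make this contrast independent of the choice. None of the 6 members with a mean of 1 FPKM or more was called by limma (0 of 6 at an adjusted p of 0.05, and 2 of 6 at an unadjusted p under 0.05), where 0.00716% of tested genes were called and 9.66% had such an unadjusted p (4.6% higher and 5.06% lower in mutants). The median difference over all 10 genes was 0.27 (log2), beside -0.03 over all tested genes. The other 4 members, tnnt3a, mylpfb, myhz2 and actn3b, were below the filter and were not tested.

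ckma had the lowest p in this contrast. Over sham and cryoinjured libraries together, it was at 1243 ± 364 FPKM in wild type (SD, n = 6, range 844 to 1912) and at 562 ± 293 FPKM in mutants (SD, n = 6, range 149 to 1041). Each SD thus includes any injury difference. All 6 mutant libraries lay below the wild-type mean of their own injury group, the sham groups did not overlap, and over both injuries only mutant cryoinjury 3 reached into the wild-type range. The difference of -1.31 ± 0.35 (log2, SE) did not pass (limma, adjusted p 0.306, unadjusted p 0.0027). Over the alternatives it lay between -1.52 and -0.97, with adjusted p of 0.12 to 0.571. Without mutant sham 1 it was -1.0, and without both libraries rich in ribosomal protein mRNA -0.97 (adjusted p 0.307).

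pvalb2 leaned the other way. Over sham and cryoinjured libraries together, whose injury difference enters the SD, it was at 3.39 ± 4.23 FPKM in wild type (SD, n = 6, range 0.27 to 11.2) and 10.1 ± 10.8 FPKM in mutants (SD, n = 6, range 0.35 to 25.7). In mutants, 5 of 6 libraries were above the wild-type mean of their injury group. The difference of 1.15 ± 0.36 (log2, SE) did not pass (limma, adjusted p 0.394, unadjusted p 0.008), and its adjusted p over the alternatives was 0.169 to 0.65. Without both libraries rich in ribosomal protein mRNA it was 1.64. The remaining tested members stood at 0.73 ± 0.60 (pvalb4), 0.68 ± 0.36 (tnnt3b), 0.66 ± 0.32 (pvalb1) and 0.27 ± 0.39 (mylpfa), with limma adjusted p of 0.522 to 0.833. Leaving out single libraries raised or lowered these values. Without mutant cryoinjury 2 they were 1.08 (pvalb4), 0.94 (tnnt3b), 0.89 (pvalb1) and 0.56 (mylpfa). pvalb4 fell to 0.28 without mutant sham 3, and mylpfa to 0.03 without mutant cryoinjury 3. tnnt3b stood at 0.39 without mutant cryoinjury 1, and pvalb1 at 0.47 without mutant cryoinjury 3. Over the 19 alternatives the 4 genes ranged from 0.28 to 1.34, 0.39 to 1.00, 0.47 to 0.94 and 0.03 to 0.73, with the pvalb1, tnnt3b and mylpfa maxima reached without both libraries rich in ribosomal protein mRNA.

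A longer list of fast muscle genes was examined in the same way. Of 46 genes listed, 44 were in the table and 22 had a mean of 1 FPKM or more. For cryoinjury against sham over both genotypes limma called 0 of the 22 (0.0644% of all tested genes), and at an unadjusted p under 0.05 there were 5 higher (8.24% of all tested genes) and 0 lower (1.46%). Their median difference was 0.13 (log2), against 0.10 over all tested genes and -0.01 after rescaling. The 5 were mylz3, a fast myosin light chain gene, tnnc2, which encodes the calcium-binding troponin C of fast fibres, the fast troponin I genes tnni2a.3 and tnni2b.2, and tpma, a tropomyosin gene of fast muscle. They were picked out by their p-values, and some had been examined before in these data. In sham libraries tnni2a.3 stood at 0 to 0.305 FPKM and tnni2b.2 at 0 to 0.41 FPKM. Both reached the mean of 1 FPKM only through the cryoinjured libraries, as did tnnc2 and tpma. A lower level after cryoinjury was hardly open to such genes, so the counts of 5 and 0 were partly set by the filter.

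mylz3 stood at 1.75, 2.13 and 2.2 FPKM in wild-type sham hearts and at 9.62, 5.45 and 4.5 FPKM after cryoinjury, and in mutants at 1.37, 6.81 and 3.4 FPKM and then 10.2, 5.97 and 10.1 FPKM. It separated the groups in wild type and not in mutants, where mutant sham 2 lay above mutant cryoinjury 2. tnnc2 lay between 0.25 and 0.52 FPKM in wild-type sham hearts and between 0.83 and 3.70 FPKM after cryoinjury, and in mutants between 0.39 and 1.27 FPKM and then 1.42 and 5.28 FPKM, so that neither genotype's groups overlapped. tpma reached 14.1 FPKM in mutant cryoinjury 1 and 11.3 FPKM in mutant cryoinjury 3 and lay between 0 and 1.97 FPKM in the other libraries. The limma adjusted p of the 5 was 0.166 to 0.317, with 6 of 6 cryoinjured libraries above the sham mean of their genotype for each except tpma, with 4 of 6. Without mutant sham 2, limma called mylz3 and tnnc2 among 428 genes, and without mutant cryoinjury 2, tnni2b.2 and tpma among 12.

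The members' 3 highest libraries were also the 3 highest for 7 of the 44 other fast muscle genes (15.9%), namely myl1, mylz3, tnnc2, tnni2a.3, tnni2b.1, tnni2b.2 and tpma, and for 0 of 23 cardiomyocyte sarcomere genes. Only 22 of the 44 were among the tested genes, so the 0.594% of tested genes is not a like base for that share. Of the 22 tested cardiomyocyte genes, 4 had a positive difference after cryoinjury in wild type and 14 in mutants. A top place in wild-type cryoinjury 1 was hardly open to most of them, so their 0 was partly set by this. The 4 most abundant genes of the fast muscle list were not alike. The enolase gene eno3 (966 to 3871 FPKM), the phosphoglycerate mutase gene pgam2 (234 to 624 FPKM) and the actin gene acta1b (249 to 2261 FPKM) had differences of -0.40 ± 0.34, -0.17 ± 0.22 and -0.18 ± 0.41 (log2, SE) after cryoinjury, and the actin gene acta1a (26.4 to 845 FPKM) had 0.67 ± 0.62. These genes carried most of the summed level of the list, 2710 to 5942 FPKM, which was 4798 to 5942 FPKM in wild-type sham and 3405 to 4904 FPKM in wild-type cryoinjured hearts. In mutants it was 3128 to 5183 FPKM after sham surgery and 2710 to 5097 FPKM after cryoinjury. For mutant against wild type over both injuries acta1b and acta1a had differences of -1.31 ± 0.41 and -1.92 ± 0.62 (log2, SE), without passing limma (adjusted p 0.394 and 0.408, with 5 of 6 and 6 of 6 mutant libraries below the wild-type mean of their injury). Without both libraries rich in ribosomal protein mRNA these were -0.82 and -1.14.

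**Figure D4:**
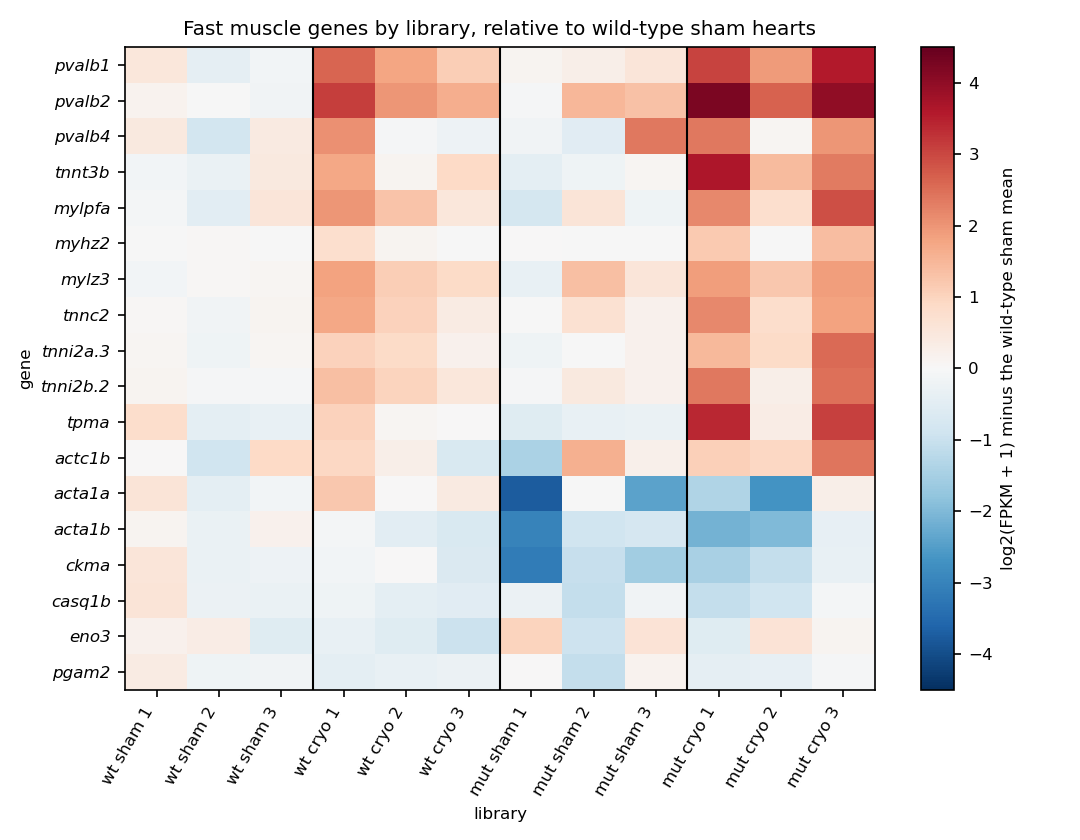
Colour gives log2(FPKM + 1) minus the mean of the 3 wild-type sham libraries, for genes in rows and single libraries in columns, with vertical lines between groups. The rows are members and other fast muscle genes chosen after their values were seen. The rows down to tpma are highest in wild-type cryoinjury 1, mutant cryoinjury 1 and mutant cryoinjury 3, except pvalb4, which is highest in mutant sham 3. The rows of acta1a, acta1b and ckma are lowest in mutant sham 1.

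Several other skeletal muscle genes, chosen after their values were seen, were low. neb, the giant thin-filament ruler of skeletal muscle, lay between 0.01 and 0.10 FPKM, and the calcium-release adaptor gene stac3 between 0 and 0.11 FPKM. myhz1.1 lay between 0 and 0.63 FPKM and myhz1.2 between 0 and 0.20 FPKM. Neither was the highest of the 7 fast heavy chain genes, whose sum reached 7.31 FPKM in mutant cryoinjury 3. The defining heavy chain genes of slow fibres, smyhc1 and smyhc3, reached 0.19 and 0.08 FPKM. The summed slow list of 10 genes ran from 52.9 to 885 FPKM in wild-type sham, 138 to 624 FPKM in wild-type cryoinjured, 130 to 780 FPKM in mutant sham and 364 to 852 FPKM in mutant cryoinjured hearts, and was carried by tnnc1b, at 11.7 to 832 FPKM. tnnc1b was highest in wild-type sham 3. There pvalb1, pvalb2 and myhz2 stood at 0.54, 0.27 and 0 FPKM, while pvalb4, tnnt3b and mylpfa stood at 2.45, 1.07 and 2.85 FPKM. That tnnt3b level was the highest of the sham libraries. Of the 5 other parvalbumin genes found, none reached the filter, and pvalb3 was highest at 1.71 FPKM.

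Among 8 myogenic regulators and muscle stem cell genes, tmem8c, which encodes the fusion protein myomaker, lay at 15.1 to 28.5 FPKM, the stem cell factor gene pax7a at 0.14 to 2.65 FPKM, myod1 at 0.09 to 3.38 FPKM and myog at 0 to 0.21 FPKM. Their sum was 25.5 to 28.8 FPKM in wild-type sham, 26.4 to 31.1 FPKM in wild-type cryoinjured, 18.0 to 33.9 FPKM in mutant sham and 21.1 to 31.0 FPKM in mutant cryoinjured hearts. Of 12 genes of the neuromuscular junction, 7 stayed under 1 FPKM in every library, among them the acetylcholine receptor genes chrna1 and chrnd and the clustering gene rapsn. The receptor gene chrnb1 was highest of the list at 0 to 20.4 FPKM, followed by dok7 at 0.82 to 4.94 FPKM, and the receptor gene chrne reached 2.54 FPKM. chrnb1 was at 0 in mutant cryoinjury 1 and 20.4 FPKM in wild-type sham 2. The list summed to 13.3 to 30.5 FPKM in wild-type sham, 21.1 to 25.3 FPKM in wild-type cryoinjured, 8.71 to 19.0 FPKM in mutant sham and 11.5 to 15.5 FPKM in mutant cryoinjured hearts. The 9 tendon and cartilage genes had their 3 highest sums in the members' own 3 highest libraries, at 31.1 FPKM in mutant cryoinjury 1, 31.0 FPKM in wild-type cryoinjury 1 and 30.2 FPKM in mutant cryoinjury 3, where the others ran from 13.4 to 29.4 FPKM. The sum was carried by tnmd, the tenomodulin gene, at 10.4 to 21.4 FPKM (difference after cryoinjury over both genotypes 0.24 ± 0.18 log2, SE), and by acana, the cartilage aggrecan gene, at 1.39 to 11.4 FPKM (-0.26 ± 0.31). Of the same list, sox9a, a cartilage transcription factor gene, had 0.58 ± 0.32, and scxa, a tendon transcription factor gene, was at 0, 0.06 and 0.26 FPKM in wild-type sham hearts and at 7.65, 1.09 and 2.06 FPKM after cryoinjury, highest in wild-type cryoinjury 1. In mutants scxa was at 0, 1.71 and 0 FPKM and then 2.74, 0.68 and 1.01 FPKM (limma over both genotypes 1.27 ± 0.37 log2, SE, adjusted p 0.295, with 6 of 6 cryoinjured libraries above the sham mean of their genotype). It reached the mean of 1 FPKM only through the cryoinjured libraries, so a lower level after cryoinjury was hardly open to it. Whether muscle or connective tissue adhering to the dissected hearts had a part in the members' levels was not tested.

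Markers of other tissues were high in various libraries. The skin and gill list summed to 785 to 1005 FPKM in wild-type sham, 977 to 1530 FPKM in wild-type cryoinjured, 998 to 1702 FPKM in mutant sham and 1506 to 1929 FPKM in mutant cryoinjured hearts, highest in mutant cryoinjury 1, and was carried by icn, krt91 and krt4. The neural list was also highest in mutant cryoinjury 1, at 7.34 FPKM, and the smooth muscle list in wild-type cryoinjury 1. Of the scarcer epidermal genes, krt5, icn2 and epcam were highest in wild-type cryoinjury 3, at 74.1, 6.5 and 1.77 FPKM. Of these, icn2 and epcam were chosen after their values were seen. The summed skin and gill list was 1530 FPKM in that library, against 1929 FPKM in mutant cryoinjury 1. A relation between these genes and the members was not tested. Wild-type cryoinjury 3 was the lowest of the wild-type cryoinjured libraries for pvalb1, pvalb2, pvalb4, tnnt3a, mylpfa, myhz2 and ckma. For mylpfb it shared the lowest value with wild-type cryoinjury 1. Wild-type cryoinjury 3 was not the lowest for tnnt3b or actn3b. tnnt3b stood at 1.83 FPKM there and at 0.68 FPKM in wild-type cryoinjury 2, and actn3b, at 0.22 FPKM, was highest of the group there. The liver, pancreas and gut list summed to 44.2 to 321 FPKM, and its pancreatic gene ctrb1 was highest in wild-type sham 3, at 247 FPKM. The summed cardiomyocyte list was 93307 to 108469 FPKM in wild-type sham, 68936 to 90660 FPKM in wild-type cryoinjured, 57708 to 84583 FPKM in mutant sham and 55225 to 87977 FPKM in mutant cryoinjured hearts. The smooth muscle list summed to 2344 to 2977, 3036 to 4617, 1364 to 2021 and 1413 to 2834 FPKM in the same order of groups. Of the 22 tested cardiomyocyte, 10 smooth muscle, 7 skin, 8 liver, pancreas and gut, 7 slow muscle, 4 junction, 4 tendon, 3 myogenic and 2 neural genes, limma called 0 for cryoinjury against sham over both genotypes. At an unadjusted p under 0.05 there were 0, 1, 0, 2, 0, 0, 1, 0 and 0 higher and 3 lower, all 3 in the liver, pancreas and gut list. Over all tested genes, limma called 0.0644%, and at that unadjusted p 8.24% were higher and 1.46% lower. The tendon gene counted as higher was scxa, which reached the filter only through the cryoinjured libraries.

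Among genes with a symbol other than a clone or locus name, those that followed the tested members most closely were again fast muscle genes. Genes under clone or locus names (such as LOC, si: or zgc:) or without a symbol were not ranked, nor were genes with a mean under 1 FPKM. Likeness was measured as the Pearson correlation of log2(FPKM + 1) with the mean standardised level of the 6 tested members over the 12 libraries, which share the injury difference that chose the members. Of the ranked genes, the 5 most alike were tnnc2 (0.93), tnni2a.3 (0.92), tnni2b.2 (0.92), tpma (0.88) and mylz3 (0.87). Next came ankrd1a, a stretch-responsive muscle ankyrin repeat gene (0.86), micall2a (0.86), the cyclin gene ccng2 (0.86), the sialic acid synthase gene nansa (0.86) and the gelsolin gene gsna (0.85). Of these, tnnc2, tnni2a.3, tnni2b.2, tpma, ankrd1a and micall2a reached the mean of 1 FPKM only through the cryoinjured libraries. So did the members pvalb1 and tnnt3b, so the likeness was partly set by the filter. ankrd1a stood at 0.85, 0.94 and 0.18 FPKM in wild-type sham and at 6.13, 3.06 and 5.43 FPKM in wild-type cryoinjured hearts, and in mutants at 0.08, 0.80 and 0.42 FPKM and then 16.6, 0.92 and 8.49 FPKM. Of the members themselves mylpfa (0.95), pvalb1 (0.95), pvalb2 (0.93) and tnnt3b (0.90) were close to this common level, pvalb4 less so (0.74) and ckma least (0.32). Each of the 6 is part of the mean it was compared with, which raises its value. The members' values are therefore not comparable with those of the other genes.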

How the data were processed

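Poly-A libraries for low input were read on the BGISEQ-500 from Trizol-extracted RNA, per the labels' protocols. The aligners HISAT and Bowtie2 and the build GRCz11 are named, per the submitters' processing notes, while the FPKM program is not given in the sources used here. Each gene has 1 FPKM value per library in the table the authors deposited. Of the value columns 13 matched a sample and 1 did not and was not used. Both columns of mutant sham 3 (median absolute log2 difference 0.017, against 0.212 to 0.673 between replicates) were averaged as 1 sample. FPKM values of all others fall when a few transcripts take a larger share, and reads of near-identical paralogs could have been divided between copies.

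Values were tested as log2(FPKM + 1) using limma 3.58.1 under R 4.3.3, with 4 group means, all 12 samples and an intensity trend, with Benjamini-Hochberg adjustment at 0.05 over 13969 genes with a mean FPKM of 1 or more. Data were simulated for mutant against wild type over both injuries (13969 genes, 5 simulations). The genes given a change were drawn only from those with a mean log2(FPKM + 1) above that of 5 FPKM. Calls reached 62.2% of the genes given a 2-fold change, 93% of those given a 4-fold change and 0.0697% of the rest. In the measured data the SE of the tested members in this contrast was 0.32 (pvalb1) to 0.60 (pvalb4). The median SE of all tested genes was 0.197. Of the tested members only ckma lay above the level from which changed genes were drawn, so the shares do not cover the others. Whether the shares hold for genes as low and variable as those members was not tested. yap1, with a difference of -0.95 (log2), was not called (limma, adjusted p 0.146). Older gene names were matched through a RefSeq table of the assembly GRCz12tu. Sequences of the members were not used here.

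The members and gene lists were chosen with earlier results of these data known. The text names all members and, by rule, the 10 other genes most like them and up to 4 of each list by mean FPKM. Genes under clone or locus names, without a symbol, or with a mean under 1 FPKM could not enter the 10. Further genes were chosen after their values were seen. Alternatives were a pseudocount of 0.1 FPKM, no filter or a filter of 5 FPKM, median-of-ratios rescaling, array weights, the replicate number as a block, only the groups compared, each library left out, and, added after seeing the data, mutant sham 1 and mutant cryoinjury 2 left out together.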

Additional observations from a re-analysis of the deposited data

How the results depend on the processing

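No member was called for mutant against wild type over both injuries under any alternative run. For cryoinjury against sham over both genotypes, the other fast muscle genes called were 0 in the reported fit, 0 to 2 when each library was left out in turn, 1 with array weights (mylz3) and 1 without the 2 libraries rich in ribosomal protein mRNA (tnni2b.2). Over all genes that contrast called 9 genes, 3 with a filter of 5 FPKM, 3 with the replicate block, 19 with median-of-ratios rescaling, 290 with array weights and 1 to 428 without single libraries. The genotype contrast called 1 gene, 3 with no filter, 15 with array weights and 0 with the replicate block or with median-of-ratios rescaling. The 2 members called for cryoinjury against sham over both genotypes, a contrast used to choose them, became 0 with no filter, with a filter of 5 FPKM, with the replicate block and without each of 10 of the 12 libraries, and 4 with array weights and without mutant sham 2. The replicate block left the sizes of all member differences as they were, with 0 members called for genotype. The labels do not say that equal numbers mark shared fish or days, and of 18 same-numbered pairs of libraries 3 had correlated deviations over 0.1 (range -0.21 to 0.33), so the numbers were not taken as pairs. With a pseudocount of 0.1 FPKM the median member difference after cryoinjury in mutants moved from 0.94 to 1.88, that in wild type from 0.43 to 0.98 and that for mutant against wild type from 0.27 to 0.51, since low values weigh more. When each library was left out, the median difference lay between 0.08 and 0.69 in wild type, between 0.66 and 1.47 in mutants, and between 0.13 and 0.52 for mutant against wild type. Depth limits tnnt3a, mylpfb, myhz2 and actn3b, whose means are under 1 FPKM.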
